A study of Homo sapiens with 16 samples.

Results

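The 10 genes described here were TP53TG1, TMEM182, DISP3, GABBR2, FAM163B, DEGS2, TPST1, MKLN1, RNLS and ATF1, of 38147 protein-coding and lncRNA genes on chromosomes 1 to 22 and X. They were chosen from the measurements themselves, because they held some of the tallest SETDB1 peaks of shCtrl cells or some of the tallest H3K9me3 peaks of shARID1A cells. TP53TG1, TMEM182, DISP3, GABBR2 and FAM163B were named as tall shARID1A H3K9me3 regions that no shCtrl H3K9me3 list held. DEGS2, TPST1, MKLN1, RNLS and ATF1, and again TMEM182 and FAM163B, were named as tall shCtrl SETDB1 regions that no shARID1A SETDB1 list held. The heights in those 2 libraries and those absences are therefore a description and not a result. Each gene was taken as its hg38 RefSeq body extended by 1 kb on both sides, and every peak overlapping it was read. The region followed across libraries was the peak with the highest fold enrichment over the 10 lists called against input.

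All libraries came from HCT116, an established line of human colon cancer cells, in 3 states by the sample labels. These were shARID1A cells, which carry an shRNA against ARID1A, shCtrl cells with a control shRNA (titled CTR, which was read as the shCtrl of the study's design text), and HCT116 cells with no shRNA named, called unmodified here. Chromatin immunoprecipitation sequencing (ChIP-seq) was done for H3K9me3, TRIM28 and SETDB1 in shARID1A cells, for these and ARID1A in shCtrl cells, and for H3K9me3, TRIM28 and ARID1A in unmodified cells. The question was how ARID1A bears on heterochromatin. Each combination had 1 library, so no difference between cell states below has a replicate check or a test. No ARID1A library of shARID1A cells was analysed here, the extent of the knockdown was not measured here, and the labels name no clone.

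SETDB1 is an enzyme that methylates lysine 9 of histone H3. In the known pathway, zinc finger proteins with a KRAB domain bind DNA and bring in the corepressor TRIM28, TRIM28 brings in SETDB1, and the H3K9me3 that SETDB1 writes marks silent chromatin, repeats and retroviral copies among it. ARID1A is a DNA-binding subunit of the SWI/SNF remodelling complex, which moves nucleosomes at promoters and enhancers and is often lost in tumours.

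The 20 peak lists held 11374 to 314688 peaks, and all of them reached down to a −log10 p of about 1.3, an unadjusted p near 0.05. A peak with a q of at most 0.05 is called strong below. The number of strong peaks against input was 12115 in shARID1A H3K9me3 and 37702 in shCtrl SETDB1. It was only 15 in unmodified H3K9me3, 25 in shCtrl TRIM28, 43 in shCtrl ARID1A and 67 in unmodified TRIM28. A missing peak in those 4 lists therefore says little. Overlaps between libraries are given as a share of each list, since the lists differ in length. Outside the 10 genes, 53.4% of the 12099 strong shARID1A H3K9me3 peaks lay at a strong shCtrl SETDB1 peak, and 17.2% of the 37666 strong shCtrl SETDB1 peaks lay at one of those. For shCtrl H3K9me3 the shares were 2.42% of the shARID1A H3K9me3 peaks and 4.3% of its own 6820. For shARID1A SETDB1 they were 4.66% and 41.2% of its own 1360, and for unmodified H3K9me3 0.0661% and 53.3% of its own 15. Against the 2 shCtrl libraries, shARID1A H3K9me3 thus shared more places with SETDB1 than with the same mark, by either share. The libraries are named by their labels throughout, and whether the labels hold was not tested. For H3K9me3 and TRIM28 the protocol and the sample characteristics name different antibody products, and which was used is not settled here.

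Against input, at every one of the 10 genes, the tallest shCtrl SETDB1 region and the tallest shARID1A H3K9me3 region were the same short stretch of DNA. H3K9me3 is a mark known for wide domains, and its shARID1A peaks at these stretches were 391 to 653 bp wide, with 470 to 690 bp for the shCtrl SETDB1 peaks. Short peaks were general in these lists, with a median of 252 bp in shARID1A H3K9me3 and 324 bp in shCtrl SETDB1. The peaks at these stretches were thus wider than the median of their list. All 10 lay inside the gene body and away from its start, between 4.45 and 248 kb from the nearest listed start of the gene (median 31.3 kb). None was within 1 kb of a start, as was the case for 0 of the 125 other shCtrl SETDB1 peaks with a fold of at least 18.5, against 10.7% of all 37702 strong shCtrl SETDB1 peaks. Each stretch lay in 1 RefSeq gene only.

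Heights are given as fold enrichment over input, as deposited by the authors. It is the ratio of summit pileup to local background after the same small constant was added to both. TP53TG1, a long noncoding RNA gene induced by p53, had the tallest region of all, on chromosome 7 from 87328241 to 87328925, 17.0 kb from its start. The fold there was 26.4 in shARID1A H3K9me3, the highest of that list, against 32.1 in shCtrl SETDB1, which ranked 8 of 79404. TMEM182, which encodes a membrane protein studied in muscle, had its region on chromosome 2 from 102801039 to 102801552, with a fold of 20.3 in shARID1A H3K9me3 and 19.2 in shCtrl SETDB1.

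DISP3 encodes a membrane protein with a sterol-sensing domain, of the Dispatched family. Its region, on chromosome 1 from 11505878 to 11506375, had a fold of 19.7 in shARID1A H3K9me3 and 17.2 in shCtrl SETDB1. GABBR2, a subunit of the receptor for the transmitter GABA that signals through G proteins, had its region on chromosome 9 from 98460638 to 98461290, 248 kb from its start. The fold was 18.8 in shARID1A H3K9me3 and 10.3 in shCtrl SETDB1, which was the lowest SETDB1 fold of the 10 genes. FAM163B, also on chromosome 9, had its region from 133597367 to 133598004, with a fold of 17.3 in shARID1A H3K9me3 and 19.5 in shCtrl SETDB1. TP53TG1, DISP3 and GABBR2 had not been named for SETDB1. The region followed in TP53TG1 was its shCtrl SETDB1 peak, so a peak of that library there was given. DISP3 and GABBR2, whose regions came from the H3K9me3 list, each had a strong shCtrl SETDB1 peak there. Of the 11 other shARID1A H3K9me3 peaks with a fold of at least 18.8, 100% had a shCtrl SETDB1 peak of any q.

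The 5 genes named for SETDB1 alone were not chosen for H3K9me3, and all 5 had a strong shARID1A H3K9me3 peak at the same place. This is not particular to them. Of the 125 other shCtrl SETDB1 peaks with a fold of at least 18.5, 99.2% had a shARID1A H3K9me3 peak of any q. DEGS2, an enzyme that introduces a hydroxyl group or double bond into the base of sphingolipids, had its region on chromosome 14 from 100154978 to 100155494, with a fold of 5.99 in shARID1A H3K9me3 and 22.7 in shCtrl SETDB1. TPST1, a Golgi enzyme that adds sulfate to tyrosines of secreted and membrane proteins, had its region on chromosome 7 from 66265540 to 66266124, with a fold of 12.2 in shARID1A H3K9me3 and 25.6 in shCtrl SETDB1. The H3K9me3 fold of DEGS2 was thus the lowest of the 10 genes although its SETDB1 fold was the third highest.

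MKLN1 encodes muskelin, a subunit of the CTLH ubiquitin ligase. Its region on chromosome 7, from 131336778 to 131337415, had a fold of 13.2 in shARID1A H3K9me3 and 19.7 in shCtrl SETDB1. RNLS encodes renalase, a flavin-dependent oxidase. Its region on chromosome 10, from 88395660 to 88396174, had a fold of 6.37 in shARID1A H3K9me3 and 19.0 in shCtrl SETDB1. ATF1, a transcription factor of the CREB family, had its region on chromosome 12 from 50799688 to 50800377, with a fold of 12.7 in shARID1A H3K9me3 and 18.5 in shCtrl SETDB1. Among the genes whose tallest region came from the SETDB1 list, ATF1 was the lowest, at rank 133 with a fold of 18.5, and rank 134 had 18.4. Among those whose tallest region came from the H3K9me3 list, GABBR2 was the lowest with 18.8, a fold reached down to rank 15, and rank 16 had 18.5. FAM163B, with an H3K9me3 fold of 17.3, lay below that height.

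**Figure D1:**
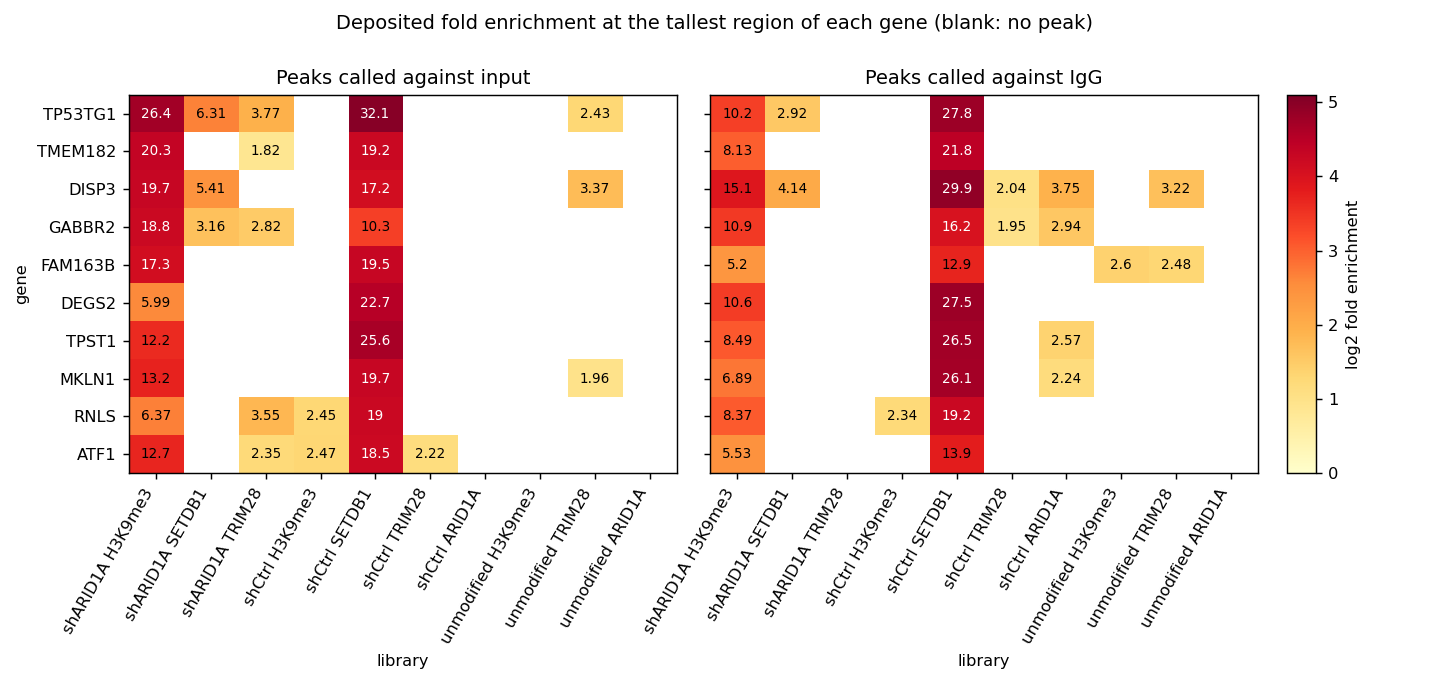
Log2 of the deposited fold enrichment at the tallest region of each of the 10 genes (rows) in the 10 libraries (columns), for peaks called against input and against IgG; blank cells have no peak. The shARID1A H3K9me3 and shCtrl SETDB1 columns are filled for all 10 genes, with folds of 5.99 to 26.4 and 10.3 to 32.1 against input, and the other libraries are mostly blank or low.

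The peaks of the 2 libraries were close to superimposed. Their summits, the single base with the highest pileup, lay 1 to 52 bp apart (median 21 bp), and 87.9% to 100% of the shorter peak lay inside the other. At TP53TG1 the summits were 1 bp apart, and at DISP3, the widest gap, 52 bp. The SETDB1 regions of other genes and of intergenic DNA showed the same: 124 of the 125 other peaks with a fold of at least 18.5 had a shARID1A H3K9me3 peak (99.2%, exact 95% interval 95.6% to 100%), with a median summit distance of 15 bp and 90.3% within 50 bp. The 11 other shARID1A H3K9me3 peaks with a fold of at least 18.8 all had a shCtrl SETDB1 peak (exact interval 71.5% to 100%). Of these 11, 100% also had a shARID1A SETDB1 peak, 81.8% had a shARID1A TRIM28 peak, 27.3% each had one of shCtrl H3K9me3, shCtrl TRIM28 and unmodified TRIM28, 18.2% each one of shCtrl ARID1A and unmodified H3K9me3, and 0 one of unmodified ARID1A. The match is therefore not particular to the 10 genes. These intervals cover counting error only. The sequences of the regions were not used here.

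**Figure D2:**
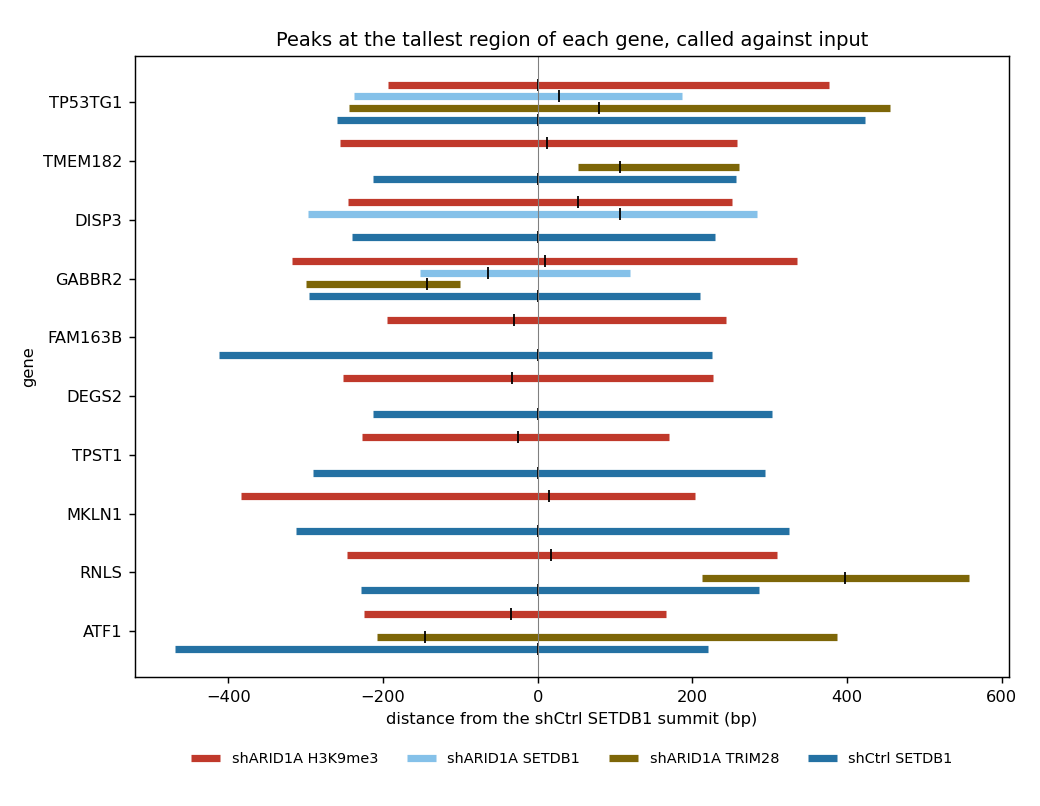
Spans of the shARID1A H3K9me3, shARID1A SETDB1, shARID1A TRIM28 and shCtrl SETDB1 peaks at the tallest region of each gene, in bp from the shCtrl SETDB1 summit, called against input; black ticks are summits, and a missing bar is a missing peak. The shARID1A H3K9me3 and shCtrl SETDB1 spans of each gene overlap over 87.9% or more of the shorter one, and the summits are 1 to 52 bp apart.

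Which of the 2 libraries had the higher fold depended on the control. Against input the fold was higher in shARID1A H3K9me3 in 3 of 10 genes, TMEM182, DISP3 and GABBR2, and higher in shCtrl SETDB1 in 7. Against IgG it was higher in shCtrl SETDB1 in 10 of 10, with 5.2 to 15.1 in shARID1A H3K9me3 and 12.9 to 29.9 in shCtrl SETDB1. DISP3 had a fold of 15.1 in shARID1A H3K9me3 and 29.9 in shCtrl SETDB1 against IgG, where TP53TG1 had 10.2 and 27.8, so the order of the genes changed too. MKLN1 had its highest shARID1A H3K9me3 fold against IgG, 14.9, at another place, with 6.89 at the region described here. DEGS2 went the other way within H3K9me3, with a fold of 10.6 against IgG and 5.99 against input.

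The fragments behind these folds could be recovered from the deposited fold and p. At the summits, shARID1A H3K9me3 had 30 to 58 whole fragments and shCtrl SETDB1 had 40 to 83, which came out whole within 0.00122 and 0.00319 of a fragment. TP53TG1 had 58 fragments (exact Poisson 95% interval 44.0 to 75.0) in shARID1A H3K9me3 and 83 (66.1 to 103.0) in shCtrl SETDB1. MKLN1, with a fold of only 13.2 and 19.7, had the next highest pileups, 52 fragments (38.8 to 68.2) in shARID1A H3K9me3 and 78 (61.7 to 97.3) in shCtrl SETDB1.

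DEGS2 had 30 fragments (20.2 to 42.8) in shARID1A H3K9me3 and 62 (47.5 to 79.5) in shCtrl SETDB1, and RNLS had 32 (21.9 to 45.2) and 57 (43.2 to 73.9) in the same libraries. GABBR2 had 41 fragments (29.4 to 55.6) in shARID1A H3K9me3 and 40 (28.6 to 54.5) in shCtrl SETDB1. In shARID1A H3K9me3 TP53TG1 was the only gene whose interval lay apart from that of DEGS2, the gene with the fewest fragments, and neighbours in the order overlapped in both libraries. The 2 libraries had been scaled unlike, by 0.9645 for shARID1A H3K9me3 and 0.7445 for shCtrl SETDB1 to meet their inputs, so fragments are not compared between them.

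In shARID1A H3K9me3 the background of the control varied more between the genes than the summit did. There the summit varied 1.93-fold between the genes, and the background varied 3.45-fold against input, between 1.16 and 4.0 fragments. In shCtrl SETDB1 both varied alike, the summit 2.07-fold and the input background 2.09-fold. DEGS2 and RNLS, with the lowest H3K9me3 folds, had the highest H3K9me3 input background at 4.0 fragments each. Against IgG their backgrounds were 1.91 and 2.94 fragments, while FAM163B and MKLN1 had 6.7 each. Backgrounds this low rest on few reads, so the order of the genes by fold is not firm at this depth.

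**Figure D3:**
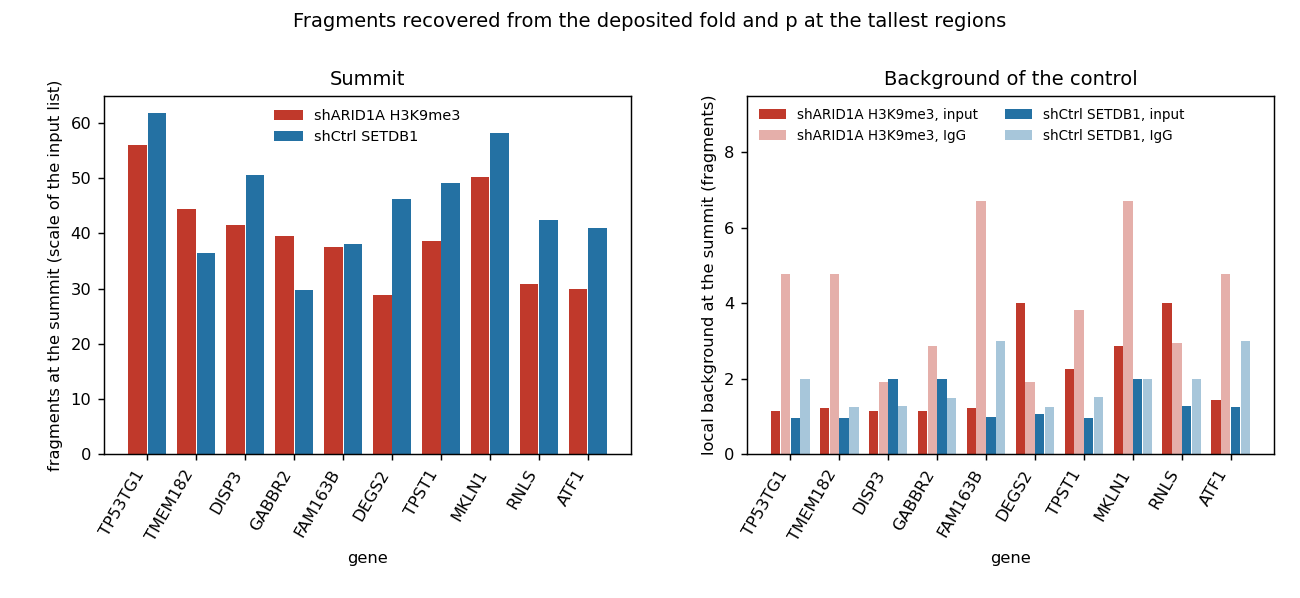
Fragments at the summit on the scale of the input list (left) and local background in fragments for the input and IgG controls (right) at the tallest region of each gene, recovered from the deposited fold and p. The shARID1A H3K9me3 background is 1.16 to 4.0 fragments against input and 1.91 to 6.7 against IgG, and the summits lie between 28.9 and 55.9 fragments.

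The same places were then followed into the other 8 libraries, where no fold against input passed 6.31. SETDB1 in shARID1A cells held 3 of the 10 regions, TP53TG1 at a fold of 6.31, DISP3 at 5.41 and GABBR2 at 3.16. The choice of genes had fixed the absence at 7 of the 10. These 3 had not been named for it, and shARID1A SETDB1 held 3 of 3. TP53TG1, with a shCtrl SETDB1 fold of 32.1, could have been named for the absence had the peak been missing. Its peak was therefore not free of the choice, and the 3 of 3 is a description. The TP53TG1 and DISP3 peaks were strong (−log10 q of 4.71 and 2.87), and the GABBR2 peak had a −log10 q of 0. Against IgG, TP53TG1 had 2.92 and DISP3 4.14, and GABBR2 had no peak. Of the other tall shCtrl SETDB1 peaks, 87.2% (80.0% to 92.5%) had a shARID1A SETDB1 peak.

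H3K9me3 in shCtrl cells held 2 of the 5 regions where its absence was not fixed, RNLS at a fold of 2.45 and ATF1 at 2.47, neither strong. Over all 10 regions it held 2, and 29.6% (21.8% to 38.4%) of the other tall peaks. Unmodified H3K9me3 held 0 of 10 and 12.0% (6.87% to 19.0%) of the others. The mark had a strong peak at the 10 places in the shARID1A library alone, of the 3 H3K9me3 libraries. At 5 of the places the choice of genes had fixed both that peak and the absence from shCtrl cells. The unmodified list held only 15 strong peaks against input in all, so a missing peak there says little.

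TRIM28 in shARID1A cells held 5 of 10 regions, at TP53TG1 (fold 3.77), RNLS (3.55), GABBR2 (2.82), ATF1 (2.35) and TMEM182 (1.82), with 0 of them strong and 0 held against IgG. The share of the other tall peaks was 44.0% (35.1% to 53.2%). TRIM28 in shCtrl cells held 1, ATF1 at 2.22, and 25.6% (18.2% to 34.2%) of the others. Unmodified TRIM28 held 3, DISP3 at 3.37, TP53TG1 at 2.43 and MKLN1 at 1.96, and 30.4% (22.5% to 39.3%) of the others. The shARID1A TRIM28 peak at RNLS had its summit 397 bp from the SETDB1 summit.

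ARID1A was not listed against input at any of the 10 regions, in shCtrl or in unmodified cells. The whole input lists held 43 strong peaks in shCtrl ARID1A and 835 in unmodified ARID1A, so a missing peak in the shCtrl list says little. Of the other tall peaks 23.2% (16.1% to 31.6%) had one in shCtrl cells and 4.8% (1.78% to 10.2%) in unmodified cells. Against IgG shCtrl ARID1A held 4 regions, DISP3 at 3.75, GABBR2 at 2.94, TPST1 at 2.57 and MKLN1 at 2.24, with none strong, and unmodified ARID1A held 0.

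**Figure D4:**
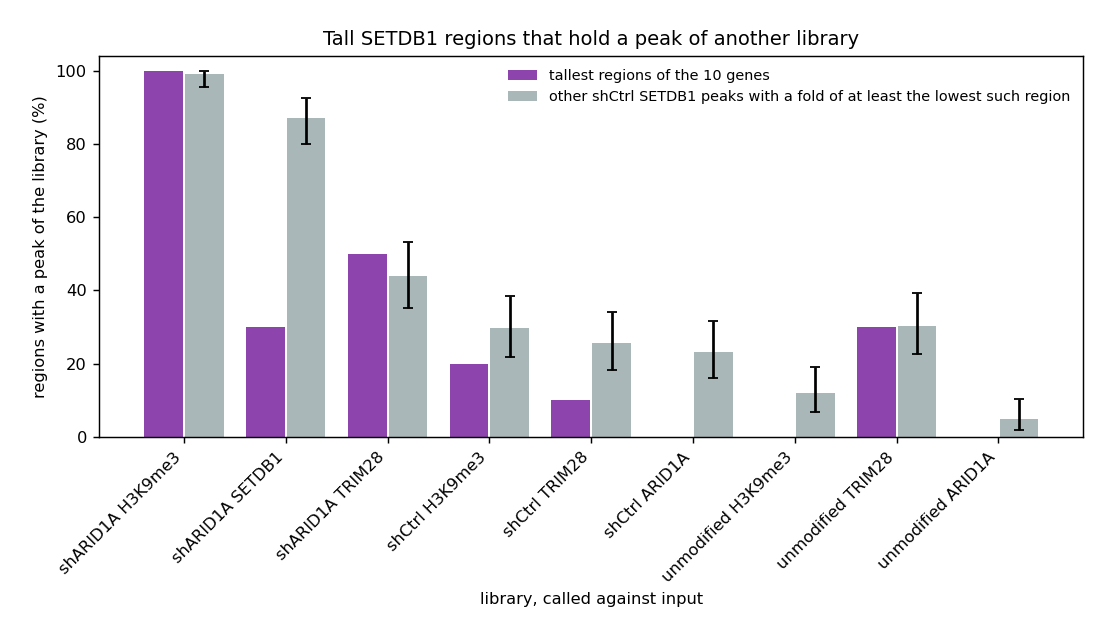
Share of tall SETDB1 regions with a peak of each library, called against input, for the tallest regions of the 10 genes and for the 125 other shCtrl SETDB1 peaks with a fold of at least 18.5; bars on the grey columns are exact 95% intervals. shARID1A H3K9me3 reaches 10 of 10 and 99.2%, shARID1A SETDB1 has 3 of 10 and 87.2%, and every other library shown is at 50% or below in both sets. The choice of genes fixed the absence of shARID1A SETDB1 at 7 of the 10 regions. It also fixed the presence of shARID1A H3K9me3 and the absence of shCtrl H3K9me3 at 5. For these 3 libraries the 2 sets of columns therefore cannot be compared.

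Read over the whole gene bodies, most libraries listed a peak somewhere in most of the 10 genes. These genes are long: their median length was 82.7 kb, against 14.9 kb over all 38147 genes. A shARID1A H3K9me3 peak was present in 10 genes (38.1% of all genes) and a shCtrl SETDB1 peak in 10 (47.9% of all genes), both fixed by the choice or close to it. Strong peaks were present in 10 and 10, against 13.6% and 34.8% of all genes. shARID1A SETDB1 had a peak in 8 (33.5% of all genes), strong in 3 (2.67%), and shARID1A TRIM28 in 10 (64.0%), strong in 1 (2.75%).

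shCtrl H3K9me3 had a peak in 8 genes (40.7% of all genes), and it was strong in 5 (8.91%), always outside the tallest region. shCtrl TRIM28 had one in 7 (35.1%) and shCtrl ARID1A in 8 (43.5%), with 0 strong in both (0.0262% and 0.0734% of all genes). Unmodified H3K9me3 had one in 3 (10.9%) with 0 strong (0.00524%), unmodified TRIM28 in 8 (23.6%) with 0 strong (0.0157%), and unmodified ARID1A in 4 (20.5%) with 2 strong (1.35%), MKLN1 and ATF1. The long genes carried the most peaks, 204 in MKLN1, 193 in RNLS and 105 in GABBR2 over the 10 input lists, against 5 in DEGS2 and 7 in FAM163B.

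Against IgG the share of all genes with a peak was higher in every library. A peak was present in 10 genes in shARID1A H3K9me3 (76.9% of all genes), shARID1A SETDB1 (74.3%), shARID1A TRIM28 (74.4%), shCtrl SETDB1 (58.9%), shCtrl TRIM28 (69.4%) and shCtrl ARID1A (74.6%). It was present in 9 in shCtrl H3K9me3 (69.7%), 7 in unmodified H3K9me3 (20.7%), 9 in unmodified TRIM28 (40.5%) and 6 in unmodified ARID1A (35.3%).

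The 10 genes held 45 places with a strong peak of any library, of which 10 were the tallest regions and 35 lay elsewhere. MKLN1 had 13, RNLS 10, GABBR2 and TPST1 6 each, ATF1 4, TMEM182 2 and the other 4 genes 1 each. Of the 35 other places, 26 had a strong shCtrl SETDB1 peak, 13 a strong shCtrl H3K9me3 peak and 6 a strong shARID1A H3K9me3 peak. A strong peak of both H3K9me3 libraries was at 1 of the 35, in MKLN1 from 131188182 to 131189119. The fold there was 3.38 in shARID1A and 5.93 in shCtrl cells. Outside the 10 genes such sharing was rare too, at 2.42% of strong shARID1A and 4.3% of strong shCtrl H3K9me3 peaks. The count is therefore not a trait of these genes.

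Of the 26 places with strong shCtrl SETDB1, 16 had a strong peak of no other library, 4 had one of shARID1A H3K9me3 and 7 one of shCtrl H3K9me3. In ATF1, the place from 50786705 to 50787980 had folds of 9.65 in shCtrl H3K9me3, 9.37 in shCtrl SETDB1 and 4.49 in unmodified ARID1A, and no shARID1A H3K9me3 peak against input (a fold of 4.12 against IgG), while the tallest region had 12.7 in shARID1A H3K9me3 and 2.47 in shCtrl H3K9me3. Other places also had strong shCtrl H3K9me3 and SETDB1 and no shARID1A H3K9me3 peak against input. TPST1 had 2, from 66257423 to 66257956 and from 66305985 to 66306772. RNLS had 2, from 88428342 to 88429503 and from 88525710 to 88526278, and MKLN1 had 1, from 131164212 to 131164871. Against IgG, shARID1A H3K9me3 had a fold of 2.4 at the second TPST1 place, 3.79 at the first RNLS place and 3.09 at the MKLN1 place. The first TPST1 place and the second RNLS place had no such peak.

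Places like the tallest regions also occurred lower down. In MKLN1 from 131255082 to 131255713 the fold was 10.2 in shARID1A H3K9me3, 4.49 in shARID1A SETDB1 and 15.4 in shCtrl SETDB1, and from 131312705 to 131313558 it was 4.96 in shARID1A H3K9me3, 4.48 in shARID1A TRIM28 and 8.8 in shCtrl SETDB1. In GABBR2 from 98365188 to 98365671 it was 8.52 in shARID1A H3K9me3 and 9.65 in shCtrl SETDB1. Of the 36 strong shCtrl SETDB1 peaks in the 10 genes, 14 (38.9%) lay at a strong shARID1A H3K9me3 peak, 7 (19.4%) at a strong shCtrl H3K9me3 peak and 1 (2.78%) at both. Among the 37666 elsewhere the shares were 17.2%, 11.8% and 0.68%. The 10 tallest regions are among the 14, so the first share was raised by the choice.

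**Figure D5:**
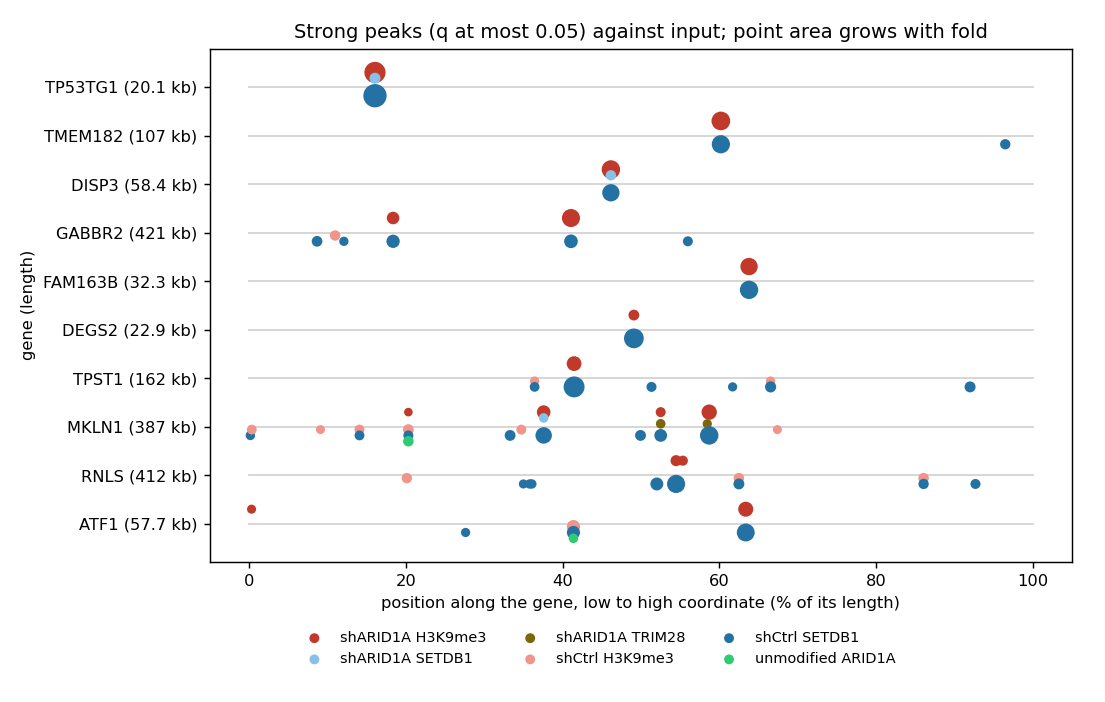
Places with a strong peak (q of at most 0.05, against input) along each of the 10 genes, in % of the gene's length from its low to its high coordinate, one row of points per library and point area growing with the fold. shARID1A H3K9me3 and shCtrl SETDB1 points coincide at the 10 tallest regions, and the 13 other places of shCtrl H3K9me3 lie apart from them.

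Near a gene start, strong peaks of shARID1A H3K9me3 or shCtrl SETDB1 included the next 2. MKLN1 had a shCtrl SETDB1 peak with a fold of 4.3 from 131110339 to 131111067, and ATF1 a shARID1A H3K9me3 peak with a fold of 3.87 from 50763383 to 50763894. Windows at the listed starts held neither. The ATF1 peak did cover the low-coordinate end of the ATF1 gene body, at 50763459, for which no window was listed. The table of promoter sequences held 15 windows for the 10 genes, from 250 bases before to 50 after a listed start, and 4 of 15 overlapped a peak of any input list, against 33.7% of 34961 windows. Of the 15, 0 had a peak of shARID1A H3K9me3 (5.75% of all windows) or of shCtrl SETDB1 (13.2%) against input. shARID1A SETDB1 and shARID1A TRIM28 had 2 each (7.31% and 10.5% of all windows), and shCtrl ARID1A had 2 (7.71%). Against IgG the numbers were 10 for shARID1A SETDB1, 6 for shARID1A TRIM28 and 8 for shCtrl ARID1A (30.5%, 26.0% and 27.8% of all windows). These counts include 3 overlapping ATF1 windows that share peaks. shCtrl SETDB1 had 1 against IgG (18.9% of all windows), a strong peak at the second listed start of MKLN1 with a fold of 4.43 (−log10 q of 2.77), and shARID1A H3K9me3 had 0 (26.5%). The windows were rich in G and C, with a median of 71.7% against 58.7% over all windows, and held a median of 32 CG steps against 14. The palindrome TGACGTCA, which ATF1 and its relatives are known to bind, was in 0 of 15 windows and in 1.85% of all.

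The promoter of DISP3 is printed because 3 libraries listed a weak peak on it while the tall region lies 27.0 kb away. The folds were 2.71 in shARID1A SETDB1, 2.35 in shARID1A TRIM28 and 3.32 in shCtrl ARID1A. The promoter of TPST1 is printed for a shARID1A SETDB1 peak with a fold of 2.87 against input and 3.79 against IgG, the strong one of the pair (−log10 q of 1.44), 60.5 kb from its tall region. Both are from RefSeq, GRCh38.p14, plus strand, 5′ to 3′, DISP3 at chr1:11478905-11479204 and TPST1 at chr7:66205084-66205383. Capitals mark the bases inside the shCtrl ARID1A input peak (221 bases, DISP3) and inside the shARID1A SETDB1 input peak (144 bases, TPST1).
DISP3 promoter: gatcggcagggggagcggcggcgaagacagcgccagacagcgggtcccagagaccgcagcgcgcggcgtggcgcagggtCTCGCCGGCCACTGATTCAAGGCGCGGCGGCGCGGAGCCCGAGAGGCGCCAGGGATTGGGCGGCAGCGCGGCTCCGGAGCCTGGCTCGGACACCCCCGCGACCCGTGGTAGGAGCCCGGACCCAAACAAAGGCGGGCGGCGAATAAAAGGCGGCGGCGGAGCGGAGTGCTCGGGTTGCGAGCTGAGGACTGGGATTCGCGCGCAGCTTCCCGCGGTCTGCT
TPST1 promoter: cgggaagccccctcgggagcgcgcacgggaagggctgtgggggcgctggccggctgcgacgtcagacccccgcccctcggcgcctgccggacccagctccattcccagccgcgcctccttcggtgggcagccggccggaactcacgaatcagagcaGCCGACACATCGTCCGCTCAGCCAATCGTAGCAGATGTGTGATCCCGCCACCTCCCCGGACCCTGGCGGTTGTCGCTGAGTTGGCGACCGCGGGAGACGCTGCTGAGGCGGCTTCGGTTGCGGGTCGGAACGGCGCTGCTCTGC

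Relatives and partners of the 10 genes were read in the same way. The list held 48 genes, such as the ceramide synthases and serine palmitoyltransferase subunits for DEGS2, the other CTLH subunits for MKLN1, and the CREB family with its coactivators for ATF1. A strong shARID1A H3K9me3 peak was in 10 of 48 (20.8%, against 13.6% of all genes) and a strong shCtrl SETDB1 peak in 23 (47.9%, against 34.8%). The 48 genes were 3.79 to 319 kb long, most of them above the median of 14.9 kb over all genes, and length was not matched. Whether the shares differ beyond length was not tested. Of the 25 with either, the tallest regions of the 2 libraries overlapped in 4. No share over all genes is set beside this count, so it is a description only. RMND5A, a CTLH subunit, had folds of 5.41 in shARID1A H3K9me3 and 10.5 in shCtrl SETDB1 at 1 shared region. FAM163A, the relative of FAM163B, had 8.52 in shARID1A H3K9me3 and 4.56 in shCtrl SETDB1, also shared.

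SPTLC1, a subunit of the enzyme that starts sphingolipid synthesis, had its highest peaks of 4.75 in shARID1A H3K9me3 and 6.94 in shCtrl SETDB1. DISP1, which releases Hedgehog proteins, had 4.61 in shARID1A H3K9me3 and 6.79 in shCtrl SETDB1. PAPSS1, which makes the sulfate donor that TPST1 uses, had 6.12 in shARID1A H3K9me3 and 3.85 in shCtrl SETDB1. In shCtrl H3K9me3 the highest fold was 7.51 in SPTLC1 and 5.45 in DISP1, both above their shARID1A H3K9me3 folds. For PAPSS1 it was 3.64, below its shARID1A H3K9me3 fold. In SPTLC1, DISP1 and PAPSS1 the tallest shARID1A H3K9me3 and shCtrl SETDB1 regions did not overlap.

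The genes whose pattern was most like that of the 10 were taken as those with the highest shCtrl SETDB1 fold at a region that a shARID1A H3K9me3 peak overlaps, over these 2 libraries. TXNL4A, a splicing factor, had folds of 20.9 in shARID1A H3K9me3 and 39.2 in shCtrl SETDB1 with summits 12 bp apart. The uncharacterised LOC105374535 had 14.7 in shARID1A H3K9me3 and 38.8 in shCtrl SETDB1. CUX2, a homeodomain transcription factor, shares 1 region with LOC105369983, with 17.9 in shARID1A H3K9me3 and 32.6 in shCtrl SETDB1. KLHL24 had 11.3 in shARID1A H3K9me3 and 32.1 in shCtrl SETDB1, and the noncoding LNCOC1 had 6.39 in shARID1A H3K9me3 and 28.5 in shCtrl SETDB1. Each of these 5 regions had a shARID1A SETDB1 peak as well, with folds of 4.13 to 5.6, as TP53TG1 and DISP3 did. That peak was absent at 7 of the 10 genes, by their choice, so the likeness covers the 2 ranked libraries only. The LOC105374535 region also had a shCtrl H3K9me3 peak, with a fold of 3.25.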

How the data were processed

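Of 16 samples, 6 were input or IgG, and the other 10 had 1 peak list against input and 1 against IgG, made by the authors. The control stands only in the name of a list. Per the submitters' processing notes, the tools were MACS2 2.2.7.1, Bowtie2 2.2.5, FastQC 0.11.9, ChIPseeker and deepTools 3.5.1, on GRCh38 (hg38). Options were not given in the sources used here. The deposited fold enrichment of a peak was taken as the ratio of summit pileup to local background, with 1 added to each. At low backgrounds it is thus smaller than the plain ratio. The deposited −log10 p and −log10 q come from the same peak call, and the deposited score column was not used. Libraries of 1 cell state presumably had the same input and IgG, so low control coverage can raise peaks in several lists at once. Sequencing totals were not used here.

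Chromosomes 1 to 22 and X were used, and 1 bp of overlap was enough to share a place. Gene bodies and starts came from RefSeq tables of GRCh38.p14, with all 10 genes matched. The lists against input are the ones reported, and those against IgG, a q of at most 0.05, no extension of genes, a 50% overlap and a distance of 1 kb were the alternatives. Fragments at summits were recovered by solving the deposited fold and p for pileup and background. Backgrounds of at least 0.2 were kept, and 4 of 40 recoveries with several solutions were settled by the constant ratio of the input and IgG scales. The recovery and the overlaps were tested on simulated data. Intervals are exact Clopper-Pearson or exact Poisson at 95% and cover counting error only. The genes and the lists of relatives were chosen with earlier results of these data known. From the relatives, the 6 with the highest fold among those with a strong peak in shCtrl SETDB1 or shARID1A H3K9me3 were taken, of which 1 is not reported here, and for likeness the 6 genes with the highest shCtrl SETDB1 fold. Python 3.11.15, numpy 2.4.6, pandas 2.3.3, scipy 1.17.1 and matplotlib 3.10.9 were used.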

Additional observations from a re-analysis of the deposited data

How the results depend on the processing

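Of the recomputed values 55 stayed within 1.5 times the reported count or within its interval, 21 moved and 0 reversed. At a q of at most 0.05, the number of the 10 genes with a peak fell to 3 in shARID1A SETDB1, 1 in shARID1A TRIM28, 5 in shCtrl H3K9me3, 0 in shCtrl TRIM28, 0 in shCtrl ARID1A, 0 in unmodified H3K9me3, 0 in unmodified TRIM28 and 2 in unmodified ARID1A. Against IgG unmodified H3K9me3 had 7. The number of tallest regions held against IgG was 0 in shARID1A TRIM28, 1 in shCtrl H3K9me3, 2 in shCtrl TRIM28, 4 in shCtrl ARID1A and 1 in unmodified H3K9me3. At a q of at most 0.05 it was 0 in shARID1A TRIM28, 0 in shCtrl H3K9me3, 0 in shCtrl TRIM28 and 0 in unmodified TRIM28. Counting peaks within 1 kb gave 8 in shARID1A TRIM28, 2 in shCtrl ARID1A and 2 in unmodified H3K9me3. The cause was not tested, apart from the stricter threshold leaving fewer peaks. The tallest region was at the same place in 10 of 10 genes by the highest −log10 q and against IgG. No paired analysis was possible because each group holds 1 library. Weak peaks at 1 to 4 fragments of background are limited by depth.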
